A study of Rattus norvegicus with 12 samples.

Results

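Transcripts typical of microglia and macrophages were followed through sorted rat T cells: Aif1 (ENSRNOG00000000853), C1qa (ENSRNOG00000012807), C1qb (ENSRNOG00000012804), Lyz2 (ENSRNOG00000005825), Apoe (ENSRNOG00000018454), Gpnmb (ENSRNOG00000008816) and Il1b (ENSRNOG00000004649). These 7 genes of the 32754 gene rows were chosen by identifier, as a measure of myeloid RNA in the samples. The samples were CD4+ T cells reactive to beta-synuclein from Lewis rats (LEW/Crl), collected on day 3 after intravenous transfer. There were 3 libraries of wild-type cells (genotype wt) from blood. Cells carrying a beta-synuclein T cell receptor transgene (b-syn TCR Tg) gave 3 libraries each from blood, from the brain meninges and from the brain parenchyma. No wild-type cells from the brain were analysed here. The labels do not state the promoter of the transgene, the age of the animals, the number of cells transferred or the purity of the sort. The tissue code in the titles ends in 4 for parenchyma and in 3 for the other groups. What the digit means is not stated. The labels do not tie libraries to separate animals, so the spread that p-values rest on is that between libraries of a group, and it may be technical.

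Microglia are the resident macrophages of the brain tissue, and other macrophages live in the meninges and around vessels. Both express complement C1q, lysozyme and Aif1, and take up debris, lipids and dying cells. CD4+ T cells are lymphocytes and are not known as a main source of these transcripts, although some of them, such as Apoe and Il1b are also made by other cells. In bulk samples, fewer cells of a type and less RNA per cell cannot be told apart. Which cells the transcripts came from was not tested. The files list no gene names, so markers of T cells and of other brain and blood cells were not looked up.

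The promoter windows of C1qa, C1qb and Gpnmb are shown because the C1q genes moved together across libraries and Gpnmb departed most from them within the parenchyma. They are the 250 bases before the start site, 5′ to 3′, from RefSeq (build GRCr8, whereas the counts are on rn6). Promoter entries were matched by symbol for 6 of the 7 genes, and Aif1 had none. C1qa (chr5:154419934-154420183, minus strand) and C1qb (chr5:154407828-154408077, minus strand) are close neighbours. The Gpnmb window is chr4:79340878-79341127, plus strand. Capitals mark GAGGAA, the core bound by the myeloid factor PU.1, TGAGTCA, the AP-1 site, and CATGTG, the core of the M-box bound by MITF and TFE factors, each on either strand.
C1qa: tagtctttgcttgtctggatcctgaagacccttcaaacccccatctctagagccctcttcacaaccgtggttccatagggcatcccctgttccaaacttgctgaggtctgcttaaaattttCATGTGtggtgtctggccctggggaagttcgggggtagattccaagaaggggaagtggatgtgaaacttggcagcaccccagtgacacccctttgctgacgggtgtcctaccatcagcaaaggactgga
C1qb: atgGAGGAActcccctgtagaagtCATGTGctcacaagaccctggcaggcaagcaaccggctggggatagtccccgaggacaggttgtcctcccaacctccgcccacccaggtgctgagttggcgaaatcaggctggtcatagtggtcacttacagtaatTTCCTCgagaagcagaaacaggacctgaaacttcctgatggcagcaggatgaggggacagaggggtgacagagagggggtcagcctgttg
Gpnmb: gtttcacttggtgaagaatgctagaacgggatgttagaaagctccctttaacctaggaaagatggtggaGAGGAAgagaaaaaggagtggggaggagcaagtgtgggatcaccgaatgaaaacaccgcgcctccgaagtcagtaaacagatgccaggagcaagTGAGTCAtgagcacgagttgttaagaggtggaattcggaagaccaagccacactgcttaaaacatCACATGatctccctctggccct
C1qa held 1 match, to CATGTG, 129 bases before the start, counted to the 5′ end of the match. C1qb held GAGGAA or its complement at 247 and 90 bases and CATGTG at 226 bases. Gpnmb held all 3 motifs, GAGGAA at 181, TGAGTCA at 87 and the complement of CATGTG at 22 bases. Over 33360 distinct RefSeq windows of this length, 23.3% held GAGGAA, 4.05% TGAGTCA and 12.1% CATGTG. No matches overlapped. A match is a stretch of letters and not a measured binding site.

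Levels are given as CPM, the count of a gene divided by the total of its library and expressed per 1000000 counts. Totals ran from 16643832 to 38601400 counts. Summed over the 7 genes, the level was 3.78, 6.64 and 4.04 CPM in wild-type blood libraries 1, 2 and 3, and 9.75, 14.5 and 9.02 CPM in transgenic blood. In the meninges it was 59.4, 14.1 and 12.5 CPM. In the parenchyma it was 450.5, 58.2 and 3677 CPM. Parenchyma library 3 thus stood far above the other 2, and library 2 was below meninges library 1. The group means were 4.82 ± 1.58, 11.1 ± 2.96, 28.7 ± 26.7 and 1395 ± 1986 CPM in the same order (SD, n = 3), the parenchymal mean was 254 CPM without library 3, and the meningeal mean was 13.3 CPM without library 1. Even in parenchyma library 3, the 102085 reads of these genes were a small part of 27761421. That share is of the 7 genes only and does not measure all myeloid RNA in the library.

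**Figure D1:**
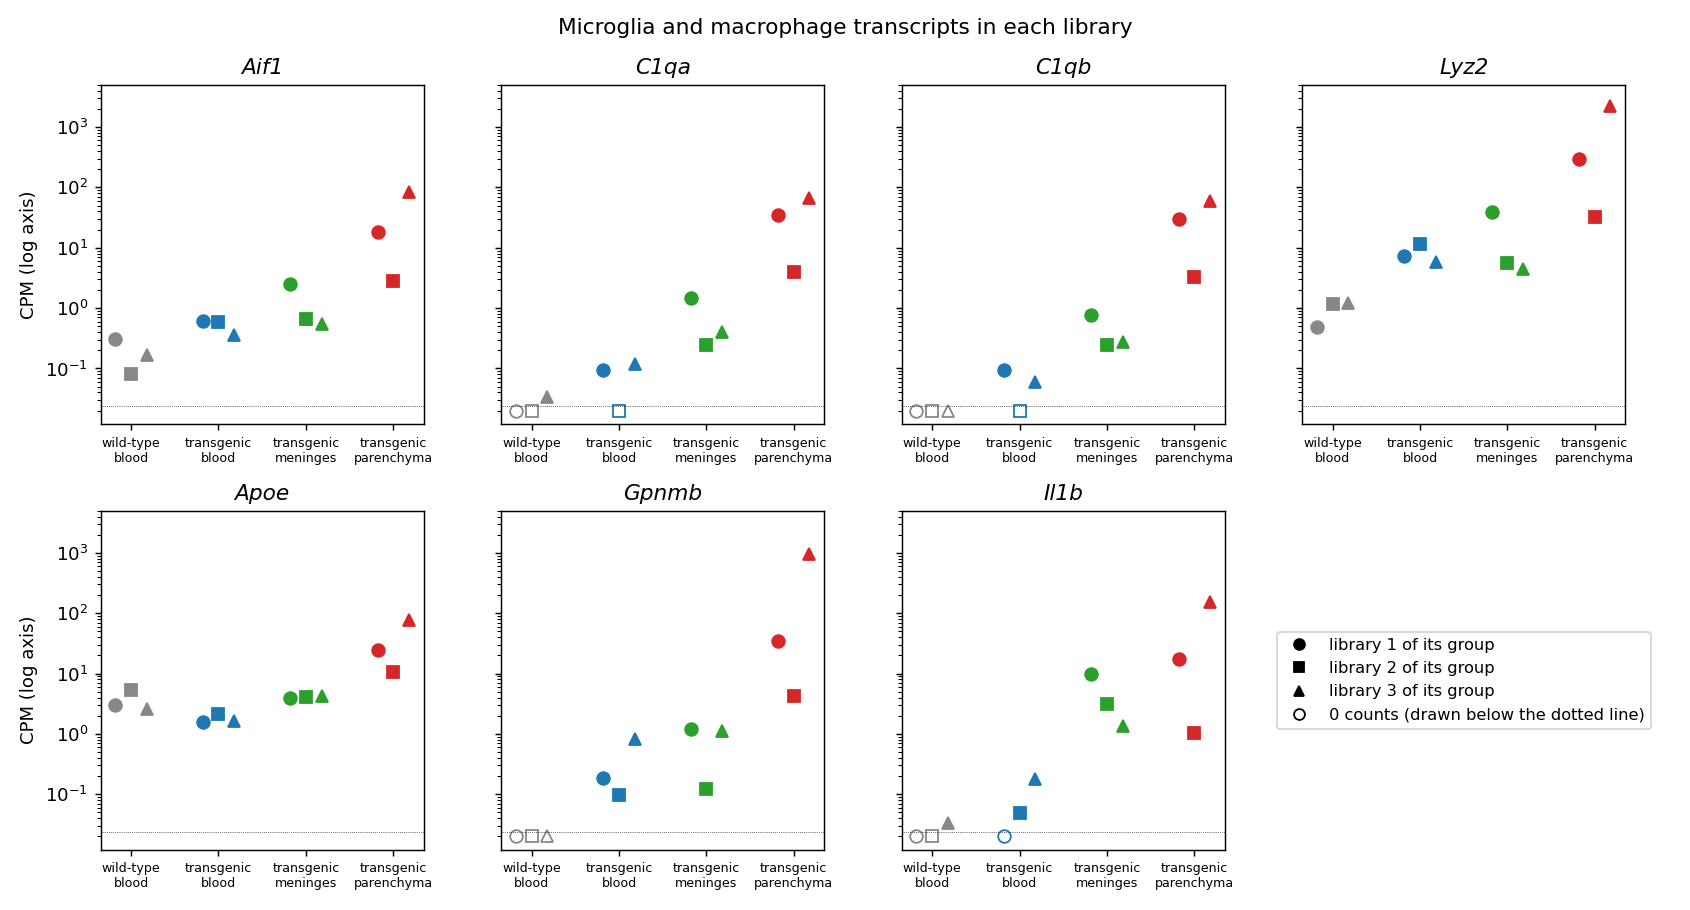
CPM of each gene (log axis) in the 12 libraries, grouped by genotype and tissue, with a symbol for each library number and open symbols for 0 counts. In the parenchyma, library 3 was highest and library 2 lowest for all 7 genes, and in the meninges library 1 was highest for 6 of 7.

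The order of the parenchymal libraries, 3 above 1 above 2, was seen in all 7 genes and in 17.3% of the 11809 genes tested between tissues. Meninges library 1 was above libraries 2 and 3 in 6 of the 7 genes, the exception being Apoe, and in 34.2% of tested genes. The size of the gap differed between genes. On a scale of CPM + 0.5, parenchyma library 3 exceeded library 2 by 209-fold for Gpnmb, 98.5-fold for Il1b, 69.0-fold for Lyz2, 25-fold for Aif1, 16.1-fold for C1qb, 15.0-fold for C1qa and 7.0-fold for Apoe. The median of all tested genes was 0.974-fold. Library 1 exceeded library 2 by 2.24-fold for Apoe and by 5.57-fold to 11.6-fold for the other 6 genes, with a median of 0.995-fold over tested genes. Library numbers were taken only to name the samples within a group.

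Aif1 encodes Iba1, an actin-binding protein used to stain microglia and macrophages. Its level was 0.311, 0.0823 and 0.167 CPM in wild-type blood and 0.612, 0.587 and 0.356 CPM in transgenic blood. It was 2.51, 0.661 and 0.548 CPM in the meninges and 18.1, 2.84 and 83.0 CPM in the parenchyma. The lowest parenchymal library lay just above the highest meningeal one, while meninges and transgenic blood overlapped.

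C1qa and C1qb encode chains of C1q, the recognition part of the first complement component, which in the brain is made mainly by microglia. C1qa had 1 count over the 3 wild-type blood libraries and 4 counts over transgenic blood, and C1qb had 0 and 3. A count of 0 in wild-type blood allows up to 0.0777, 0.0823 and 0.10 CPM in libraries 1, 2 and 3. C1qa reached 1.45, 0.240 and 0.396 CPM in the meninges and 34.4, 3.98 and 66.7 CPM in the parenchyma. C1qb reached 0.766, 0.240 and 0.274 CPM, and 29.9, 3.25 and 59.8 CPM. For both genes, blood, meninges and parenchyma did not overlap. Their reads kept a like proportion in the parenchyma, with 0.869 C1qb reads per C1qa read in parenchyma library 1 (95% exact binomial interval 0.775 to 0.973), 0.816 (0.588 to 1.13) in library 2 and 0.897 (0.839 to 0.959) in library 3. In the meninges the ratio was 0.529, 1.0 and 0.692, on at most 34 C1qa reads a library. These intervals cover counting error only.

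Lyz2 encodes lysozyme, an antibacterial enzyme abundant in macrophages and neutrophils. Its level was 0.492, 1.18 and 1.2 CPM in wild-type blood and 7.21, 11.6 and 5.82 CPM in transgenic blood. It was 39.9, 5.53 and 4.54 CPM in the meninges and 292, 32.3 and 2266 CPM in the parenchyma. Meninges libraries 2 and 3 were below every transgenic blood library, and parenchyma library 2 was below meninges library 1. RefSeq lists a neighbouring copy, Lyc2, whose window of 300 bases around the start site ends in 89 bases identical to those of Lyz2. Reads may therefore be shared or lost between the copies, and the Lyz2 values are uncertain to that extent.

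Apoe encodes apolipoprotein E, a lipid carrier made by astrocytes and by activated microglia and macrophages. Its level was 2.98, 5.38 and 2.60 CPM in wild-type blood and 1.55, 2.15 and 1.66 CPM in transgenic blood. It was 3.87, 4.15 and 4.29 CPM in the meninges and 24.2, 10.5 and 76.7 CPM in the parenchyma. The meningeal libraries were nearly level, and lay above transgenic blood but within the range of wild-type blood.

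Gpnmb encodes a transmembrane glycoprotein of lysosomes and melanosomes that is raised in lipid-laden macrophages. It had 0 counts in the wild-type blood libraries, with the same limits as for C1qb, and 0.188, 0.0979 and 0.831 CPM in transgenic blood. It had 1.19, 0.120 and 1.10 CPM in the meninges and 34.2, 4.17 and 973 CPM in the parenchyma. Meninges and transgenic blood overlapped, and parenchyma library 3 held 26998 of the 27740 Gpnmb reads of its group.

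Il1b encodes interleukin 1 beta, an inflammatory cytokine of activated myeloid cells. It had 1 count over the wild-type blood libraries and 4 over transgenic blood. It had 9.79, 3.12 and 1.34 CPM in the meninges and 17.5, 1.05 and 153 CPM in the parenchyma. Every meningeal library was above every blood library, and parenchyma library 2 was below all meningeal libraries.

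The comparison of parenchyma with blood of transgenic cells asked how cells within the brain tissue differed from those in circulation. All 7 genes were called higher in the parenchyma by edgeR's quasi-likelihood test at an adjusted p below 0.05, where 18.7% of 11809 tested genes were called higher. The groups did not overlap in any of the 7, against 24.2% of tested genes that were higher without overlap. The log2 fold change was 6.04 for Aif1 (SE 1.21, adjusted p = 0.00453), 8.88 for C1qa (SE 1.34, adjusted p = 0.000968) and 9.09 for C1qb (SE 1.31, adjusted p = 0.000737). It was 6.73 for Lyz2 (SE 1.55, adjusted p = 0.00865), 4.38 for Apoe (SE 0.65, adjusted p = 0.000913), 9.91 for Gpnmb (SE 2.16, adjusted p = 0.00666) and 9.59 for Il1b (SE 2.11, adjusted p = 0.00692). The median over the 7 was 8.88 and over all tested genes 0.02. Only Lyz2 and Apoe reached the level of the low-count filter, 0.471 CPM, in all 3 blood libraries. The other 5 genes could be tested because of the brain groups. Their calls and adjusted p, like the counts and the median over the 7, are therefore descriptions. Ratios of pooled counts show how thin the blood side was: 653-fold for C1qb, with 2300 against 3 counts (95% interval 223 to 3171), 553-fold for C1qa (216 to 2029) and 978-fold for Il1b (382 to 3593). These intervals cover counting error and leave out the spread between libraries, and 4235 of the 4592 parenchymal Il1b reads came from library 3.

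Without parenchyma library 3, all 7 genes were again called higher than in blood, where 1917 of all tested genes were called higher. The values were smaller for each of the 7. The log2 fold change was then 4.28 for Aif1, 7.99 for C1qa, 8.16 for C1qb, 4.29 for Lyz2, 3.25 for Apoe, 5.72 for Gpnmb and 6.93 for Il1b. Adjusted p lay between 0.000117 (Apoe) and 0.0117 (Lyz2). With limma-voom, 4 of the 7 were called, and Aif1 (adjusted p = 0.0914), Il1b (0.195) and Gpnmb (0.237) were not. Over all tested genes, limma-voom called 1939 higher.

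Parenchyma and meninges were compared to ask whether the compartments of the brain differed. Here 6 of the 7 genes were called higher in the parenchyma, where 8.0% of 11809 tested genes were called higher. Groups did not overlap in 5 genes, against 21.1% of tested genes higher without overlap. The log2 fold change was 8.54 for Gpnmb (SE 1.93, adjusted p = 0.0187), 6.10 for C1qb (SE 1.01, adjusted p = 0.00500), 5.64 for Lyz2 (SE 1.46, adjusted p = 0.0304) and 5.57 for C1qa (SE 1.02, adjusted p = 0.00796). It was 4.75 for Aif1 (SE 1.10, adjusted p = 0.0205) and 3.13 for Apoe (SE 0.60, adjusted p = 0.00999). Il1b did not pass, at 3.54 (SE 1.35, adjusted p = 0.108). The median over the 7 was 5.57, and over all tested genes 0.02. C1qa and C1qb reached the filter level in 1 meningeal library each and Gpnmb in 2, against all 3 parenchymal libraries. The calls and adjusted p of these genes, the counts and the median are therefore descriptions here too.

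**Figure D2:**
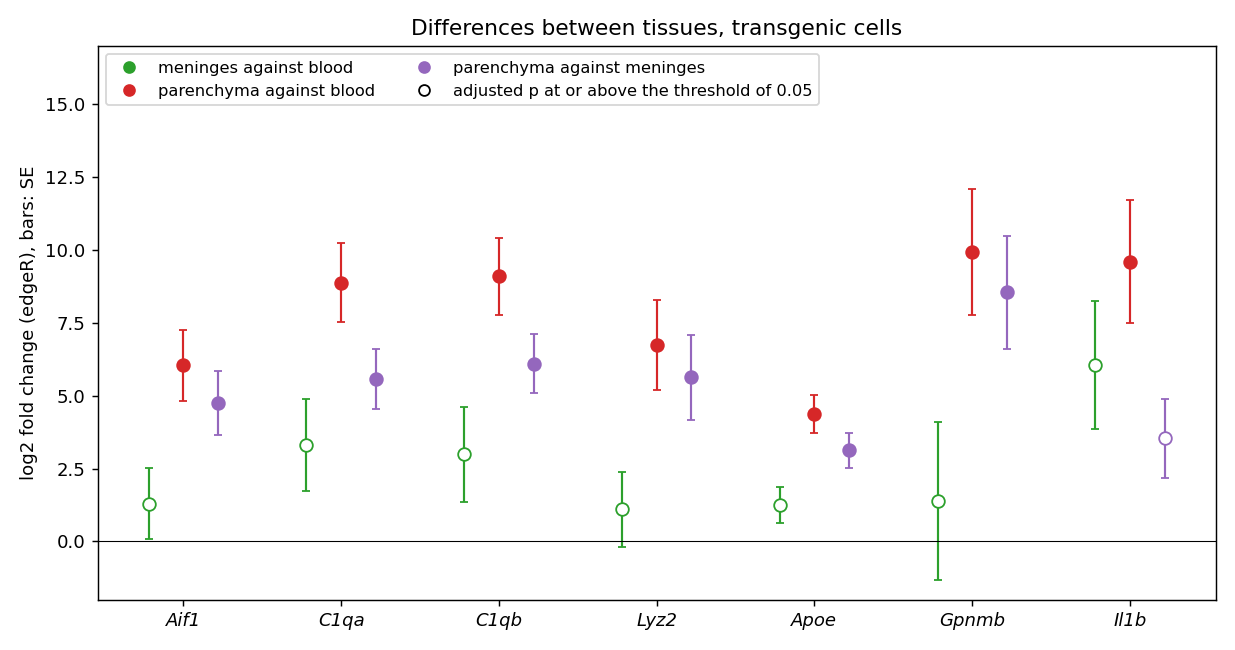
Log2 fold changes from edgeR with their SE for the 7 genes in the 3 contrasts of transgenic cells, with open points where adjusted p was at or above 0.05. All 7 parenchyma against blood values are filled, and all 7 meninges against blood values are open.

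Several of these calls changed when a library was left out. Without parenchyma library 3, Lyz2 fell outside the threshold (log2 fold change 3.20, adjusted p = 0.0657), while Gpnmb stayed called at 4.41 (adjusted p = 0.0146), and Il1b was at 0.88 (adjusted p = 0.614). Without transgenic blood library 3, Lyz2 missed the threshold too (adjusted p = 0.0522). Without meninges library 1, Gpnmb was not called (adjusted p = 0.0625). Without meninges library 2 or 3, 3 genes were called, C1qa, C1qb and Apoe, and Aif1, Lyz2 and Gpnmb missed the threshold. In those fits, genes called higher over all tested genes went from 945 to 325 without meninges library 2 and to 336 without library 3, while Gpnmb was at 8.15 and 8.74. Without parenchyma library 2, Il1b passed as well (log2 fold change 4.10, adjusted p = 0.0183). In a setting chosen after the data were seen, without both parenchyma library 3 and meninges library 1, 6 genes were called, with Lyz2 at 4.97 (adjusted p = 0.0119) and Il1b at 2.04 (adjusted p = 0.248). Over all tested genes, 547 were called higher in that fit. With limma-voom, Apoe alone was called (adjusted p = 0.0445).

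**Figure D3:**
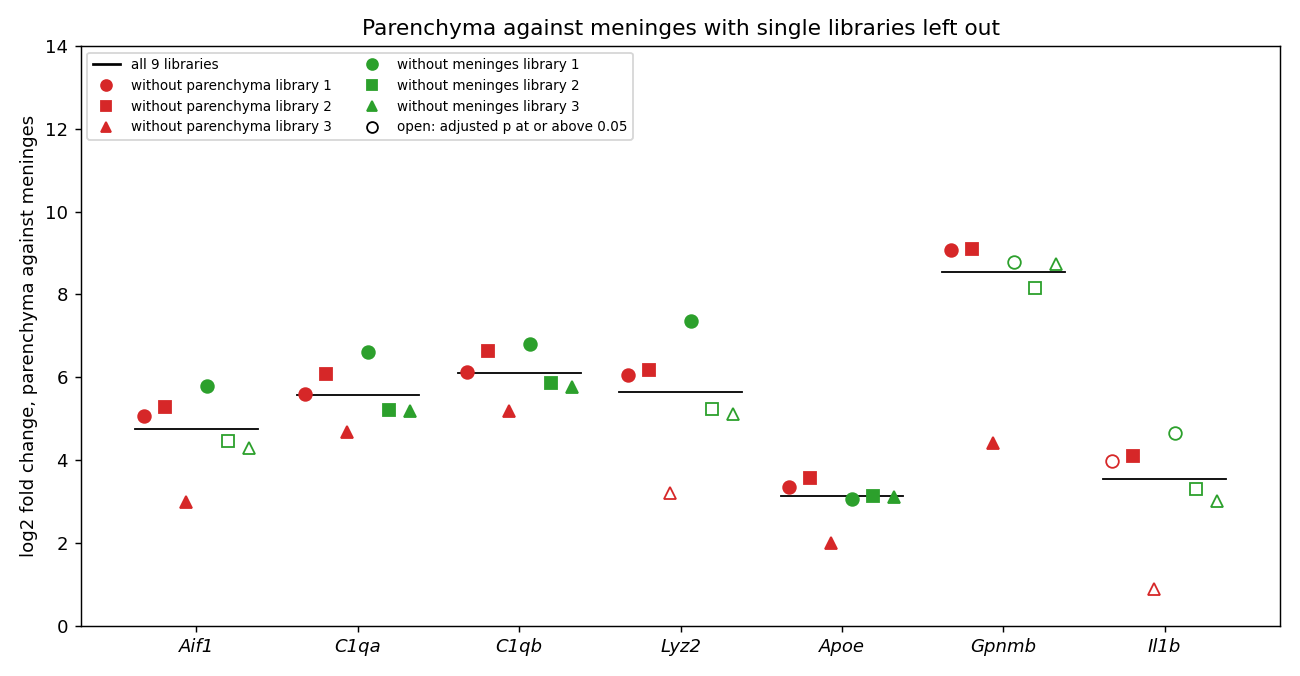
Log2 fold change of parenchyma against meninges for each gene with all 9 transgenic libraries (line) and with a library of these groups left out (red parenchyma, green meninges, open where adjusted p was at or above 0.05). Leaving out parenchyma library 3 gave the lowest value for all 7 genes, and that of Gpnmb went from 8.54 to 4.41.

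The comparison of meninges with blood concerned cells at the border of the brain. None of the 7 genes was called by edgeR (0 genes, where 4.76% of 11809 tested genes were called higher), and 1 gene, Il1b, had an unadjusted p below 0.05. DESeq2 called 1 of the 7 genes, Il1b, and limma-voom 0, where they called 850 and 511 of all tested genes higher. The groups did not overlap in 4 genes, C1qa, C1qb, Apoe and Il1b, against 13.5% of tested genes higher without overlap. C1qa, C1qb and Il1b reached the filter level in 0 transgenic blood libraries, and C1qa and C1qb in 1 meningeal library each. The counts, and the calls and adjusted p of C1qa, C1qb and Il1b, are therefore descriptions here too. Il1b had the largest log2 fold change of the 7, 6.05 (SE 2.18, adjusted p = 0.142), and 326 against 4 counts gave a pooled ratio of 65.3-fold (95% interval 25.3 to 241, for counting error only and not for the spread between libraries). Meninges library 1 held 230 of the 326 reads. Its adjusted p was 0.00770 with DESeq2 and 0.520 with limma-voom, and it was called in 4 of 16 other settings. Those included the fit of only these groups (adjusted p = 0.00802), where Apoe was called too (log2 fold change 1.25, adjusted p = 0.00615). C1qa and C1qb did not pass the filter in that fit and were not tested. Without parenchyma library 3, which enters the shared estimate of spread, Il1b (adjusted p = 0.0345) and Apoe (0.0386) were both called, and without parenchyma library 2 Il1b was (0.0491).

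The other genes had log2 fold changes in meninges against blood of 3.31 for C1qa (adjusted p = 0.258), 2.99 for C1qb (0.326), 1.37 for Gpnmb (0.825), 1.29 for Aif1 (0.586), 1.25 for Apoe (0.276) and 1.09 for Lyz2 (0.681). Without meninges library 1, the value was -0.68 for Lyz2 (adjusted p = 0.842), 0.21 for Aif1 (0.959), 2.22 for C1qa (0.529) and 2.25 for C1qb (0.556). That of Gpnmb was 0.88 without blood library 2 and 2.61 without blood library 3, and was not called in either fit (adjusted p = 0.910 and 0.781). The median over the 7 was 1.37 against 0.00 for all tested genes. It is a description, because 5 of the 7 genes did not reach the filter level in all 3 transgenic blood libraries. These contrasts share blood libraries with those of the parenchyma.

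Within a library, the ratio of reads between genes does not depend on the library total, and shows whether the genes kept the same proportions. These ratios were chosen after the data were seen. For each Lyz2 read, parenchyma libraries 1, 2 and 3 held 0.0600, 0.0326 and 0.0673 Il1b reads, and meninges libraries 0.245, 0.565 and 0.295. The ranges did not overlap, and they did not overlap per C1q read either (C1qa and C1qb summed), at 0.146 to 1.21 in the parenchyma and 2.00 to 6.50 in the meninges. The measured ratio of Il1b to these 2 references was thus higher in all 3 meningeal libraries. Per Lyz2 read, no exact binomial interval of a meningeal library included a parenchymal value. Per C1q read, that of meninges library 3 (1.17 to 3.50, on 22 C1q reads) included the highest parenchymal value, 1.21. For that library, the difference per C1q read is therefore within counting error. With 3 libraries against 3, the exact two-sided permutation test cannot go below p = 0.1, which is the value reached here (adjusted p = 0.275 over 11 ratios tested).

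Apoe reads per Lyz2 read were 0.0971, 0.750 and 0.946 in the meninges and 0.0828, 0.326 and 0.0338 in the parenchyma, and overlapped. Per C1q read, Apoe was at 1.75 to 8.63 in the meninges and 0.377 to 1.46 in the parenchyma, and Aif1 at 0.818 to 1.38 and 0.282 to 0.656. Both were without overlap between meninges and parenchyma at the same p = 0.1 of the exact permutation test. The meningeal ratios rest on 52, 8 and 22 C1q reads in libraries 1, 2 and 3. The 95% exact binomial interval of Apoe in meninges library 1 (1.23 to 2.51) includes the highest parenchymal value. So do those of Aif1 in meninges libraries 2 (0.504 to 3.94) and 3 (0.414 to 1.60). In transgenic blood libraries 1 and 3, on 4 and 3 C1q reads, Apoe was at 8.25 and 9.33 per C1q read. Aif1 was at 3.25 and 2.00 there. Gpnmb reads per C1q read were 0.532 and 0.576 in parenchyma libraries 1 and 2 and 7.69 in library 3 (95% exact binomial interval 7.42 to 7.97), and 0.538, 0.250 and 1.64 in the meninges. Lyz2 reads per C1q read were 4.55 and 4.47 in parenchyma libraries 1 and 2 and 17.9 in library 3, and ran from 6.77 to 18 in the meninges. Parenchyma libraries 1 and 2 thus had like proportions of Gpnmb, Lyz2 and C1q at different levels. They differed in Apoe, at 0.377 and 1.46 reads per C1q read, and in Il1b, at 0.273 and 0.146. Parenchyma library 3 held far more Gpnmb and Lyz2 for its C1q, and also more Il1b (1.21) and Aif1 (0.656).

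**Figure D4:**
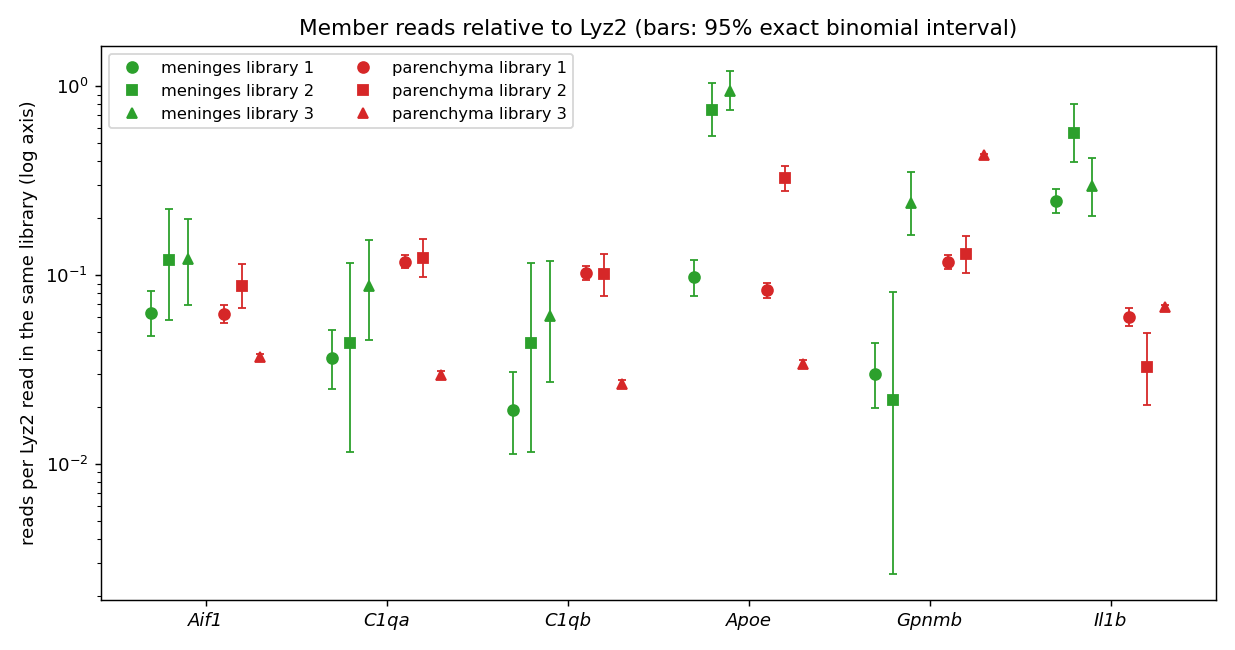
Reads of 6 genes per Lyz2 read in the same library (log axis), for meninges (green) and parenchyma (red), with 95% exact binomial intervals for counting error. The 3 meningeal libraries lie above the 3 parenchymal ones for Il1b, and within the parenchyma library 3 is highest for Gpnmb and lowest for C1qa and C1qb.

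In blood, the comparison of transgenic with wild-type cells concerned the genotype. Lyz2 and Apoe passed the filter on low counts, and moved in opposite directions. Lyz2 was higher in transgenic cells, with a log2 fold change of 3.09 (SE 0.36, adjusted p = 0.000418). Apoe was lower, with a log2 fold change of -1.05 (SE 0.32, adjusted p = 0.0391). Of 11618 tested genes, 13.1% were called higher and 12.8% lower. The groups did not overlap for either gene, where 23.6% of tested genes were higher and 20.2% lower without overlap. Apoe reads per Lyz2 read were 6.05, 4.56 and 2.2 in wild-type and 0.216, 0.186 and 0.286 in transgenic blood. The call for Lyz2 was made in all 11 other settings (adjusted p at most 0.00176). That for Apoe was made in 6 of 11, and was lost with limma-voom (adjusted p = 0.0666), without wild-type library 2 (log2 fold change -0.65, adjusted p = 0.125) and without transgenic library 1 (0.126), 2 (0.0512) or 3 (0.0950).

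The other 5 genes were too low in blood for the filter. Gpnmb had 20 counts over transgenic and 0 over wild-type blood, at least 12-fold higher when the wild-type group is set to 3 counts in all, and 14 of the 20 counts came from transgenic library 3. Without the filter it was called (adjusted p = 0.00146), as it was by DESeq2 (0.00122). Aif1 had 31 against 20 counts, a pooled ratio of 2.78-fold (95% interval 1.54 to 5.15), with no overlap between groups, and an adjusted p of 0.0863 without the filter. It passed the filter when a library was left out, and was called without wild-type library 1 (log2 fold change 2.07, adjusted p = 0.0294). C1qa and Il1b each had 4 counts against 1, a ratio of 7.18-fold whose interval of 0.710 to 354 includes equal levels. C1qb, at 3 and 0 counts, was at or under the floor in both groups.

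By likeness of pattern, the genes nearest to these 7 were sought among 9668 other genes with a mean of at least 5 CPM in a group. Likeness was the Pearson r over the 12 libraries between log2(CPM + 0.5) of a gene and the mean of that value over the 7. The highest were ENSRNOG00000026235 (r = 0.996) and ENSRNOG00000008736 (r = 0.995). ENSRNOG00000026235 had 33.2, 4.44 and 243.5 CPM in parenchyma libraries 1, 2 and 3, 2.43, 0.541 and 0.396 CPM in the meninges and at most 0.237 CPM in blood. ENSRNOG00000008736 had 14.4, 1.60 and 77.6 CPM in the parenchyma and 2.04, 0.180 and 0.213 CPM in the meninges. Both had the order of the parenchymal libraries and the high value of meninges library 1, which follows from choosing them by this likeness. These values describe 12 libraries that fall into groups, and carry no test.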

How the data were processed

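RNA of sorted T cells was sequenced in 12 libraries. The deposited values are raw counts per gene and library, listed by Ensembl rat identifier. Per the submitters' processing notes, STAR 2.5 and featureCounts 1.5.0-p1 are among the tools, bcl2fastq 2.17.1.14 and FastQC 0.11.5 are named as well, and the build is rn6. R 3.4.2 and DESeq2 1.14.1 are also listed. Settings, strand and annotation: not given in the sources used here. Reads of overlapping or antisense genes could therefore not be separated. Per the labels' protocols, a TruSeq and a NEBNext low-input kit were used, and which library had which is not stated, so effects of kit and of group cannot be told apart.

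Files held 32754 gene rows and no other rows. CPM is the count over the file total. Genes were tested with edgeR 4.0.16 in R 4.3.3: filterByExpr (minimum count 10), TMM scaling, the quasi-likelihood F test, two-sided, and Benjamini-Hochberg adjustment over all genes tested, with a threshold of 0.05. The tissue contrasts were fitted on 9 transgenic libraries (6 residual degrees of freedom) and the genotype contrast on 6 blood libraries (4). The SE was taken as the absolute log2 fold change over the root of the F statistic. Intervals are exact binomial at 95%. Alternatives were DESeq2 1.42.0, limma-voom (limma 3.58.1), DESeq2 size factors, no filter, fits of only the groups compared, the replicate number as a block, and each library left out in turn. The procedure was tested on simulated data: in a simulation of parenchyma against blood with 11697 genes, it recovered 83% of 4-fold and 49% of 2-fold changes, and called 6 unchanged genes. Counts were drawn independently around the mean of each gene over the 9 libraries. The simulation therefore does not cover genes near 0 in a group, or genes that shift together in a library.

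Gene symbols of the 7 genes came with the list that chose them. The gene table at hand held 0 lines with a rat Ensembl identifier, so gene lists of other cell types and pathways were not tested. The genes and lists were chosen with earlier results of these data known. Named genes are all 7, plus the 2 identifiers most like them by the stated measure. The lowest chi-square per degree of freedom between replicate libraries was 13.9, so none agreed within sampling noise.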

Additional observations from a re-analysis of the deposited data

How the results depend on the processing

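Of the single-gene log2 fold changes under other settings, 321 kept their direction and their side of the threshold, 26 lost the call, 7 gained one and 2 changed sign. The 5 genes too low for the filter in blood have no main value for the genotype and are not among these. Both sign changes were of Lyz2 in meninges against blood, not called in any setting: 1.09 with all libraries, -0.68 to 1.56 when a library was left out (-0.68 without meninges library 1), and -0.68 without that library and parenchyma library 3 (chosen after the data were seen).

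For parenchyma against blood, 7 of the 7 genes were called in 15 of 16 other settings, and 4 with limma-voom. For parenchyma against meninges, 6 were called, but 1 with limma-voom, 3 in a fit of only these groups, and 3 to 7 when a library was left out. For meninges against blood, 0 were called, but 1 with DESeq2, 2 in a fit of only these groups, and 0 to 2 when a library was left out. C1qa and C1qb did not pass the filter in the fit of only these groups. For transgenic against wild-type blood, 2 were called, but 1 with limma-voom, 3 with DESeq2 or no filter, and 1 to 3 when a library was left out. The cause was not tested.

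Over all genes, parenchyma against blood gave 4143 calls, 4681 with DESeq2, 3882 with limma-voom, and 3298 to 4416 when a library was left out. Meninges against blood gave 769 calls, 1318 with DESeq2, 1260 in a fit of only these groups and 346 to 952 when a library was left out. Parenchyma against meninges gave 1828 calls, 1610 with limma-voom, 1271 in a fit of only these groups, 1041 without parenchyma library 3 and meninges library 1, and 730 to 2159 when a library was left out. With DESeq2, that contrast gave 2313. Transgenic against wild-type blood gave 3002, 3408 with DESeq2, 3487 with no filter, and 1789 to 2906 when a library was left out. The summed level was 1.17 CPM in wild-type blood without Apoe and 2.88 CPM in transgenic blood without Lyz2.

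With the replicate block, 0 of the 7 genes were called for meninges against blood, 7 for parenchyma against blood, 5 for parenchyma against meninges and 2 for genotype. All genes called with the block were 674, 3671, 1407 and 3126 in that order, and Lyz2 lost its call between parenchyma and meninges (adjusted p = 0.0971). Same-numbered libraries did not deviate together in all pairs (r from -0.332 to 0.313), so the numbers were not taken to pair samples. Between transgenic blood and meninges, however, r was 0.260, 0.267 and 0.0756 for the same number and -0.245 to 0.0250 for different numbers. Whether these samples were paired was not tested. In blood, counts of 4 or fewer for C1qa, C1qb and Il1b limit what could be detected.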
